A study of Caenorhabditis elegans with 8 samples.

Results

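The genes described here encode the levamisole-sensitive acetylcholine receptor of *Caenorhabditis elegans* body wall muscle and the proteins that assemble and cluster it. They were chosen by name as 10 genes: the 6 subunit genes *unc-38*, *unc-63*, *unc-29*, *lev-1*, *lev-8* and *acr-8*, the clustering gene *lev-10*, and the assembly genes *ric-3*, *unc-50* and *unc-74*. Of these, 9 were matched by name in a table of 17521 genes, and all 6 subunits were among them. No entry was matched to *unc-74*, which is therefore not analysed here. RNA-seq was done on whole N2 hermaphrodites, the wild-type laboratory strain, harvested on day 1 of adulthood. The treated worms spent 24 h, from larval stage 4, on plates with 50 μM atracurium besylate, and the control worms spent the same time on plates with the water vehicle. Plates of both groups also held 5-fluorouracil, which blocks DNA synthesis and so the production of progeny. Each group had 4 samples, and each sample pooled about 1000 worms.

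Atracurium is a muscle relaxant used in surgery that competes with acetylcholine at nicotinic receptors of muscle. In *C. elegans*, acetylcholine released by motor neurons opens ion channels in the muscle membrane and makes the muscle contract. One class of these channels is named after levamisole, a drug against parasitic worms that holds them open and paralyses the animal. This channel is built from alpha subunits, which carry the paired cysteines of the acetylcholine site, and non-alpha subunits, and worms that lack an essential subunit resist levamisole and move poorly. Before the receptor reaches the synapse its subunits are folded and joined in the endoplasmic reticulum, carried through the Golgi, and gathered opposite the motor neuron endings by an extracellular scaffold.

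The samples held 30836643 to 35947045 assigned reads in atracurium worms and 27922986 to 60015200 in water worms. Replicates of a group differed more than counting noise alone allows (chi-square per degree of freedom 5.36 to 62.8 between atracurium samples and 6.41 to 18.9 between water samples). Values are log2 counts scaled to library size (CPM, made from read counts, on a log2 scale), so that a step of 1 is a doubling. The 2 groups were compared with limma-trend over all 17521 genes, and p-values were adjusted by the Benjamini-Hochberg method over the same genes. No source says which samples came from separate cultures beyond the statement that 4 were grown, so the p-values measure the spread between these samples. RNA came from whole worms, and a change of a gene's RNA in muscle cannot be told apart from a change in the RNA of other tissues.

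Transcripts of the receptor and of its assembly proteins did not pass the test for a difference between atracurium and water worms. Of the 9 genes, 0 had an adjusted p below 0.05 in limma-trend, against 0.177% of all genes in the table (31 genes). At an unadjusted p below 0.05 the count was also 0, where 11.5% of all genes passed (4.91% higher and 6.63% lower with atracurium). By limma-voom on the recovered reads both counts were 0 as well. The fitted differences lay between −0.17 (*lev-1*) and 0.26 (*lev-8*) on the log2 scale, with a median of 0.08, beside a median of −0.01 over all genes. In 7 of the 9 the fitted value was above 0, as it was in 47.7% of all genes. The widest 95% confidence interval among them ended at a log2 difference of 0.70 (*lev-8*) on the upper side, and the lowest bound was −0.55 (*lev-1*). In 1 gene, *lev-10*, the samples of the groups did not overlap, with every atracurium sample higher. Over all genes the groups stood apart in 7.16%, with 3.41% higher and 3.75% lower with atracurium.

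**Figure D1:**
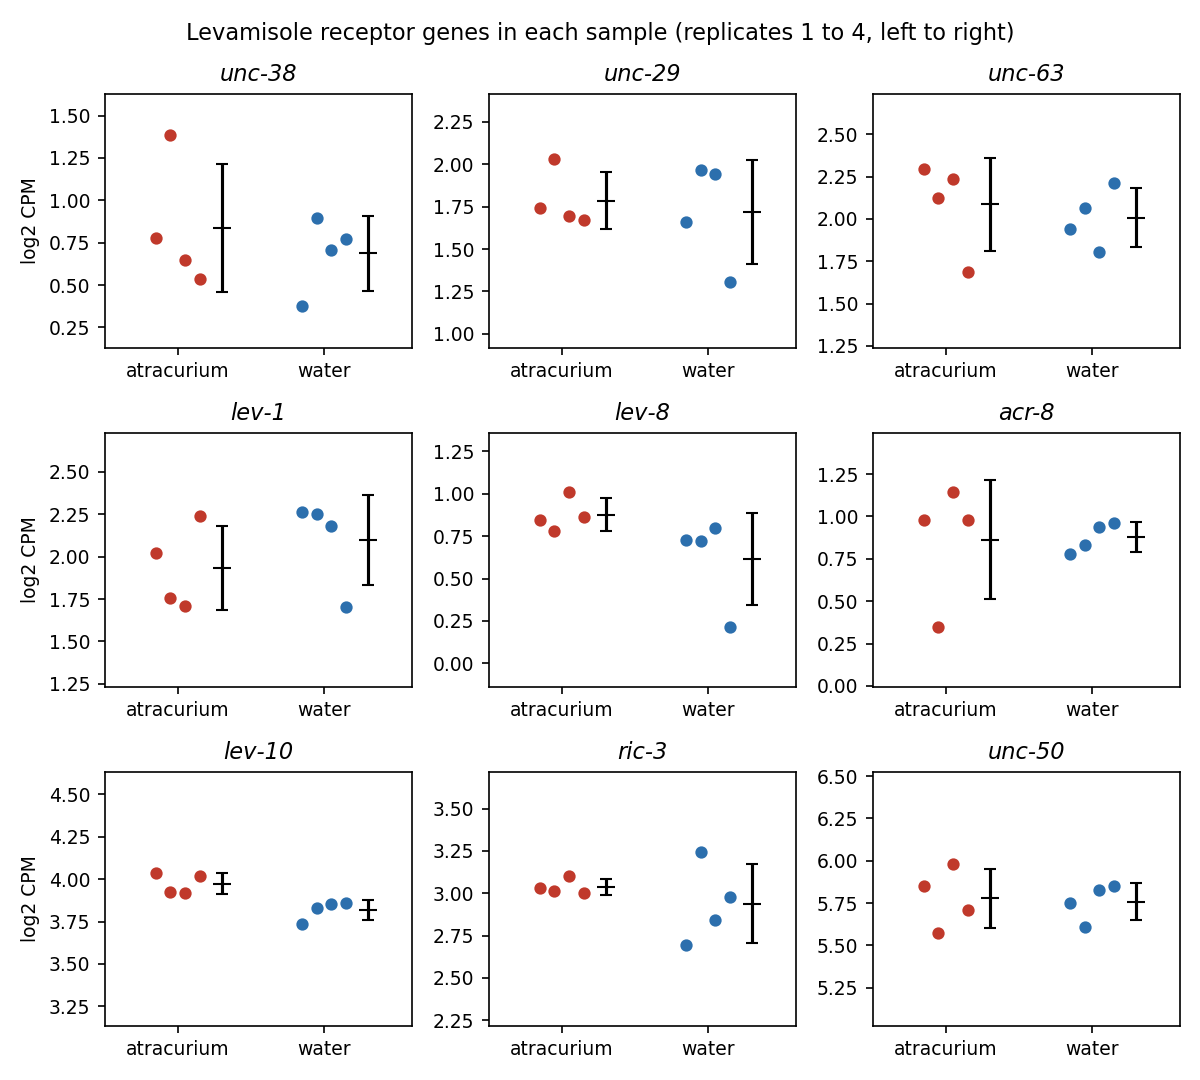
Level of each of the 9 genes in each sample, in log2 CPM on the vertical axis, with atracurium samples (red) left of water samples (blue); the bars give the mean ± SD over 4 samples, and every panel spans the same range of log2 CPM. Only in the *lev-10* panel do all atracurium points (3.92 to 4.04) lie above all water points (3.74 to 3.86).

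The alpha subunit UNC-38 is essential to the channel and is also used by a receptor of motor neurons. Its gene (WBGene00006774) lies on chromosome I from 4897620 to 4900974 on the minus strand of WBcel235. The level of *unc-38* was 0.78, 1.38, 0.65 and 0.53 log2 CPM in the atracurium samples, against 0.38, 0.89, 0.71 and 0.77 log2 CPM in the water samples. Atracurium replicate 2 was the highest of the 8 samples and water replicate 1 the lowest, with the rest intermingled. The mean was 0.84 ± 0.38 log2 CPM in atracurium worms and 0.69 ± 0.22 log2 CPM in water worms (SD, n = 4 each). The difference was 0.15 on the log2 scale (SE 0.23), a 1.11-fold ratio with a 95% confidence interval of 0.780 to 1.57, and limma-trend gave an adjusted p of 0.818. Without atracurium replicate 2 the fitted difference was −0.03. These values rest on 45 to 86 reads per atracurium sample and 42 to 111 reads per water sample.

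UNC-63, a second essential alpha subunit, is encoded on chromosome I from 5141673 to 5149226 on the plus strand. The level of *unc-63* was 2.30, 2.12, 2.24 and 1.68 log2 CPM with atracurium, against 1.94, 2.06, 1.80 and 2.21 log2 CPM with water. Atracurium replicate 4 lay below all water samples and atracurium replicates 1 and 3 above them. The log2 difference was 0.08 (SE 0.17, 95% confidence interval −0.28 to 0.44), with an adjusted p of 0.871 in limma-trend. It was 0.0090 without atracurium replicate 1, 0.01 without water replicate 3, 0.03 without atracurium replicate 3, 0.15 without water replicate 4 and 0.21 without atracurium replicate 4.

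The non-alpha subunits are UNC-29, which the channel cannot do without, and LEV-1, whose loss weakens the response to levamisole. For *unc-29* (chromosome I, 8897632 to 8901435, minus strand) the 4 atracurium samples gave 1.74, 2.03, 1.69 and 1.67 log2 CPM, against 1.66, 1.96, 1.94 and 1.30 log2 CPM in the water samples. The atracurium values fell inside the range of the water values except for replicate 2, which was the highest of all. The log2 difference was 0.07 (SE 0.18, 95% confidence interval −0.33 to 0.46; adjusted p = 0.904 by limma-trend). Its sign turned when a single library was left out, to −0.02 without atracurium replicate 2 and to −0.07 without water replicate 4.

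The *lev-1* gene (chromosome IV, 13174157 to 13179395, minus strand) had the lowest fitted value of the 9 genes. Its level was 2.02, 1.76, 1.71 and 2.24 log2 CPM in atracurium worms, against 2.26, 2.25, 2.18 and 1.70 log2 CPM in water worms. In 3 of the 4 water samples *lev-1* was close to 2.2 log2 CPM, while water replicate 4 was as low as the lowest atracurium sample. The log2 difference was −0.17 (SE 0.18, 95% confidence interval −0.55 to 0.22), a ratio of 0.890, with an adjusted p of 0.710 in limma-trend. Leaving out water replicate 4 moved it to −0.30 and leaving out atracurium replicate 4 to −0.27, while it was −0.11 without atracurium replicate 2 and −0.09 without atracurium replicate 3.

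LEV-8 is an alpha subunit of the native channel, and ACR-8 is a related alpha subunit that can enter the channel when LEV-8 is missing. Both genes lie on the X chromosome, *lev-8* from 11560915 to 11563707 and *acr-8* from 10412725 to 10416661, both on the plus strand. The level of *lev-8* was 0.85, 0.78, 1.01 and 0.86 log2 CPM with atracurium, against 0.73, 0.72, 0.80 and 0.21 log2 CPM with water. Only the overlap of atracurium replicate 2 with water replicate 3 kept the groups from standing apart. The log2 difference of *lev-8*, 0.26 (SE 0.20, 95% confidence interval −0.18 to 0.70), was the highest of the 9, at 1.20-fold, and its adjusted p was 0.614 in limma-trend. Without water replicate 4, in which *lev-8* had 32 reads, the difference was 0.13. The level of *acr-8* was 0.98, 0.35, 1.14 and 0.98 log2 CPM with atracurium, against 0.78, 0.83, 0.94 and 0.96 log2 CPM with water. Here atracurium replicate 2 was the lowest of the 8 samples and the other atracurium samples the highest. The log2 difference of *acr-8* was −0.01 (SE 0.21, 95% confidence interval −0.48 to 0.45; adjusted p = 0.986 by limma-trend), and without atracurium replicate 2 it was 0.16. It was also above 0, by 0.01, without water replicate 3 or without water replicate 4.

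LEV-10 is a transmembrane protein of muscle with extracellular CUB domains that holds the levamisole receptor in clusters at the synapse. Its gene (chromosome I, 14390333 to 14400226, plus strand) gave 4.04, 3.92, 3.92 and 4.02 log2 CPM in the atracurium samples, against 3.74, 3.83, 3.86 and 3.86 log2 CPM in the water samples. Every atracurium sample was above every water sample, and the gap between the lowest atracurium value and the highest water value was narrower than the range of either group. The mean of *lev-10* was 3.97 ± 0.06 log2 CPM in atracurium worms and 3.82 ± 0.06 log2 CPM in water worms (SD, n = 4 each). The difference of 0.15 on the log2 scale (SE 0.08, 95% confidence interval −0.02 to 0.33), or 1.11-fold, did not pass the test (adjusted p = 0.468 by limma-trend, 0.0772 before adjustment). After a trend of the fold changes with exonic length was removed, the value for *lev-10* was 0.08. In the annotation used for lengths, 2714 of its 2950 exonic bases (92.0%) are shared on the same strand with *eat-18*, whose small membrane protein acts with acetylcholine receptors of the pharynx. The methods give HTSeq's default counting, which leaves a read in exons shared by genes of the same strand with neither gene. Whether the exons are shared in the older annotation the reads were counted on was not checked. The exonic length behind the *lev-10* reads is therefore uncertain, and no entry was matched to *eat-18*. If the exons are shared there too, the level of *lev-10* per kilobase given here is too low. The 7 pharyngeal muscle markers summed to 147.7 to 172.1 CPM in atracurium worms and 117.5 to 121.7 CPM in water worms. The groups stood apart, atracurium higher, in 2 of these 7 genes and 4 of 15 body wall muscle markers, against 3.41% of all genes. The same held in 1 of 7 intestine, 1 of 13 neuronal and 1 of 8 germ line and oocyte markers. It held in 0 of 6 hypodermis markers and 0 of 9 sperm markers. The part of any of these tissues in the *lev-10* values was not tested.

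RIC-3 is a chaperone of the endoplasmic reticulum that acetylcholine receptors need for folding and assembly. The level of *ric-3* (chromosome IV, 7818251 to 7821195, plus strand) was 3.03, 3.01, 3.10 and 3.0 log2 CPM with atracurium, against 2.70, 3.24, 2.84 and 2.98 log2 CPM with water. The atracurium samples were nearly equal and lay within the wider range of the water samples. The log2 difference was 0.10 (SE 0.13, 95% confidence interval −0.17 to 0.37; adjusted p = 0.766 by limma-trend). Without water replicate 1 it was 0.02 and without water replicate 2 it was 0.20.

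UNC-50 is a protein of the Golgi without which the levamisole receptor is sent for degradation. Its transcript was the most abundant of the 9, with 5.85, 5.58, 5.98 and 5.71 log2 CPM in atracurium samples, against 5.75, 5.61, 5.83 and 5.85 log2 CPM in water samples (chromosome III, 10314523 to 10318162, minus strand). The groups overlapped, with atracurium replicate 3 above and atracurium replicate 2 below all water samples. The log2 difference of *unc-50* was 0.02 (SE 0.09), and its 95% confidence interval of −0.17 to 0.21 was narrower than that of any subunit. Limma-trend gave an adjusted p of 0.948. The sign was not fixed by these samples, with −0.01 without atracurium replicate 1, −0.05 without atracurium replicate 3 and −0.03 without water replicate 2.

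**Figure D2:**
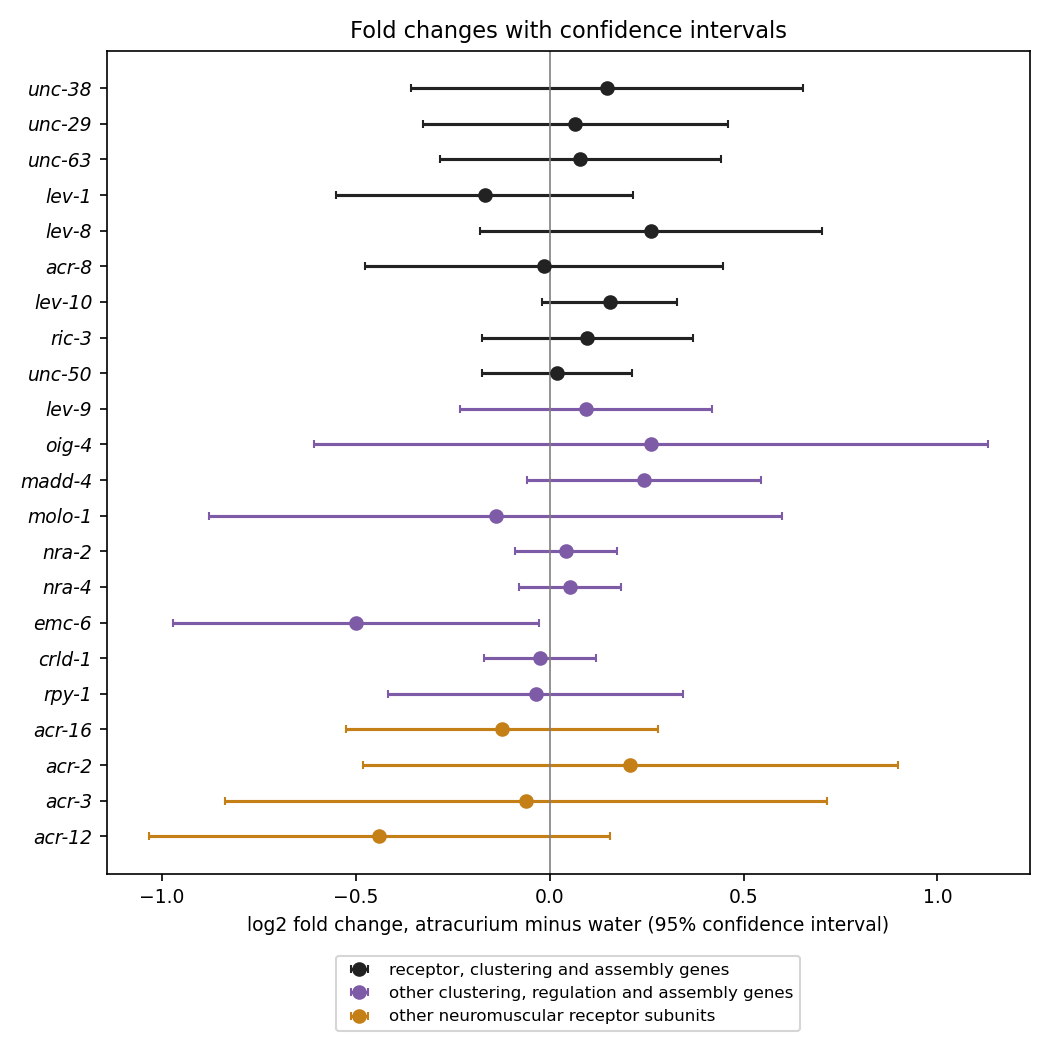
Log2 fold change of atracurium minus water (horizontal axis) with its 95% confidence interval from limma-trend for the 9 receptor, clustering and assembly genes (black), 9 other genes of receptor clustering, regulation and assembly (purple) and 4 other neuromuscular receptor subunits (orange). The intervals of all 9 black points include 0, and among the other points only that of *emc-6* does not.

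The precision of these comparisons followed the read numbers only in part. Read counts of the subunit genes were low, with 231 to 668 reads summed over the 4 samples of a group, while *unc-50* had 7274 in atracurium samples and 8080 in water samples. For *unc-38* counting alone would give an SD of 0.19 in the atracurium group and 0.20 in the water group on the log2 scale, against observed SDs of 0.38 and 0.22. For *unc-50* it would give 0.034 and 0.033, against 0.175 and 0.109, so that this well-counted gene varied between replicates by several times its counting error in both groups. For *lev-10* the counting SD of 0.064 in atracurium and 0.066 in water was close to the observed 0.062 and 0.057. Some observed SDs were below the counting SD. These included *lev-8* with atracurium (0.097 against 0.188), *acr-8* with water (0.089 against 0.183) and *ric-3* with atracurium (0.046 against 0.088). An SD over 4 samples is thus only a rough measure of the spread. Counting error here treats reads as independent molecules, and reads copied by PCR are not.

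**Figure D3:**
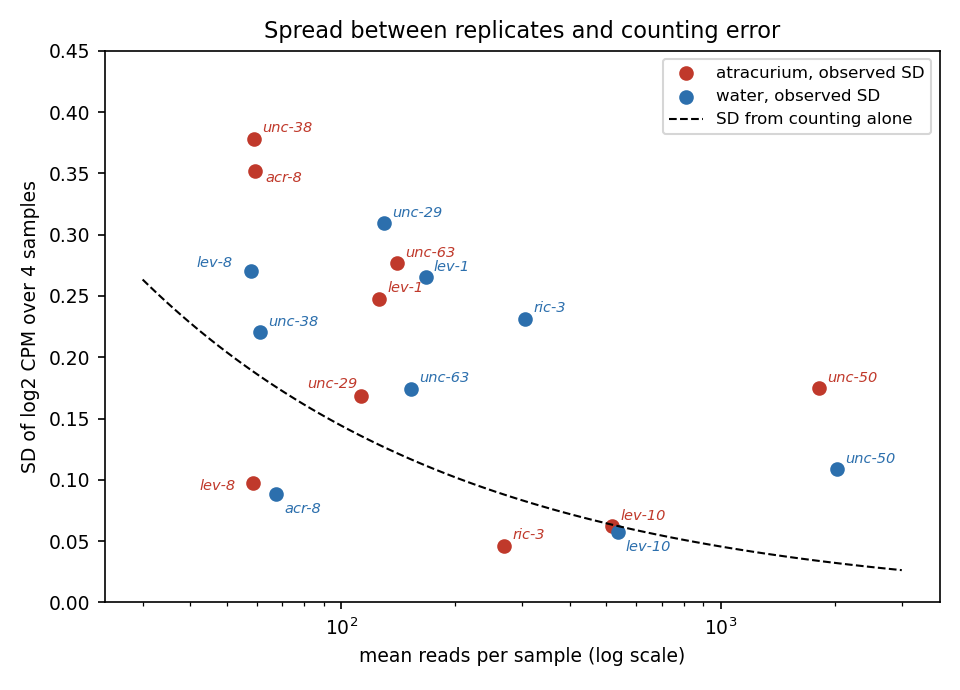
Observed SD of log2 CPM over the 4 samples of each group (vertical axis) against the mean reads per sample on a log scale (horizontal axis) for the 9 genes in atracurium (red) and water (blue), with the SD that counting alone would give as a dashed line. The points of *unc-50* (0.175 and 0.109) lie far above the line, and those of *lev-10* lie on it.

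Single libraries stood at the ends of several genes. Atracurium replicate 2 was the highest of the 8 samples for *unc-38* and *unc-29* and the lowest for *acr-8* and *unc-50*. Water replicate 4 was the lowest of the 8 for *lev-1*, *lev-8* and *unc-29*, and water replicate 1 for *unc-38*, *lev-10* and *ric-3*. No library was the highest or the lowest for all 6 subunit genes.

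Levels can be set side by side between genes only per length, as CPM per kilobase of exon. In atracurium worms *unc-50* stood at 42.3 ± 5.11 CPM per kilobase, *lev-10* at 5.31 ± 0.23 and *ric-3* at 5.10 ± 0.17 (SD, n = 4). In water worms the same levels were 41.6 ± 3.06, 4.77 ± 0.19 and 4.81 ± 0.80 CPM per kilobase (SD, n = 4). The subunits followed below these. With atracurium *unc-63* had 2.61 ± 0.47, *unc-29* 2.11 ± 0.26 and *lev-1* 2.01 ± 0.36 CPM per kilobase, against 2.45 ± 0.30, 2.04 ± 0.42 and 2.26 ± 0.38 CPM per kilobase with water. The lowest levels were those of *unc-38*, *lev-8* and *acr-8*, at 1.06 ± 0.31, 1.03 ± 0.07 and 0.995 ± 0.22 CPM per kilobase with atracurium, against 0.933 ± 0.14, 0.863 ± 0.15 and 0.985 ± 0.06 with water.

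The order thus had 4 steps that held in each of the 8 samples: *unc-50*, then *lev-10* and *ric-3*, then *unc-63*, *unc-29* and *lev-1*, then *unc-38*, *lev-8* and *acr-8*. Within a step, neighbours overlapped across samples and no order held in all 8. Inside a group, *unc-63* was above *unc-29* in 4 of 4 atracurium samples, by as little as 1.002 times. In the same way *lev-1* was above *unc-29* in 4 of 4 water samples, by as little as 1.006 times. In atracurium samples *unc-50* was 7.13 to 9.46 times the level of *lev-10*, its nearest neighbour there, and in water samples 6.36 to 10.3 times that of *ric-3*. The place of *lev-10* is uncertain, and its level may be too low, because of the exons it shares with *eat-18* in the annotation used for lengths.

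**Figure D4:**
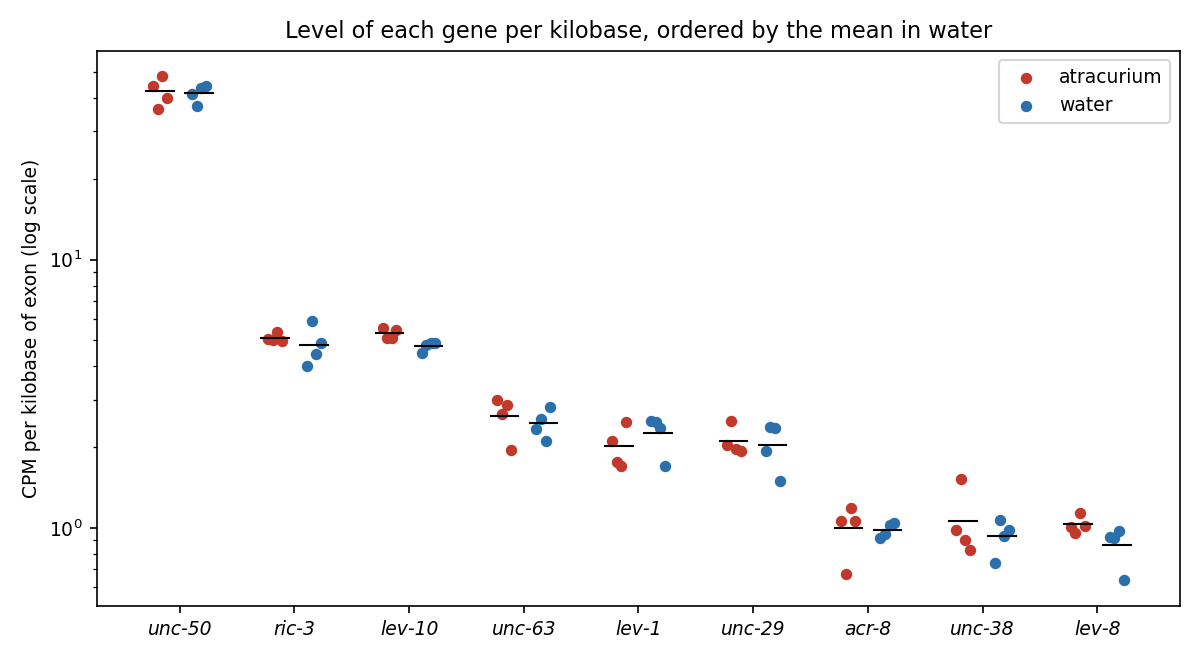
Level of each gene in CPM per kilobase of exon (vertical axis, log scale) in the 4 atracurium samples (red) and the 4 water samples (blue), with the group mean as a line, ordered by the mean in water. The subunits *unc-63*, *lev-1* and *unc-29* lie near 2 CPM per kilobase and *acr-8*, *unc-38* and *lev-8* near 1, in both groups.

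The mix of subunit transcripts was similar in the 2 groups. The 6 subunits summed to 9.81 ± 0.41 CPM per kilobase in atracurium worms and 9.53 ± 0.71 in water worms (SD, n = 4 each). Of this sum *unc-63* made up 26.5 ± 3.95% with atracurium and 25.9 ± 4.64% with water, and *unc-29* made up 21.5 ± 2.29% with atracurium and 21.2 ± 3.04% with water. The share of *lev-1* was 20.6 ± 4.36% with atracurium and 23.7 ± 3.03% with water. The remaining shares were 10.7 ± 2.93%, 10.5 ± 0.96% and 10.2 ± 2.44% for *unc-38*, *lev-8* and *acr-8* with atracurium, and 9.80 ± 1.45%, 9.01 ± 1.22% and 10.4 ± 1.24% with water. The *lev-8* level divided by that of *acr-8*, the alpha subunit that can stand in for it, was 1.07 ± 0.24 in atracurium worms and 0.882 ± 0.18 in water worms. Each of these differences between groups was smaller than the larger SD of the pair, except in the share of *lev-8*. Shares and ratios were not tested.

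Further proteins that cluster, regulate or assemble the receptor were followed as a list of 9 genes, all in the table. Of these 5 had fitted values above 0 and 4 below, with a median log2 difference of 0.04, and 0 passed at an adjusted p below 0.05. Among the scaffold genes, *lev-9*, whose secreted product works with LEV-10, had a log2 difference of 0.09 (SE 0.15), and *oig-4*, a secreted immunoglobulin-domain protein of muscle, had 0.26 (SE 0.40). The gene *madd-4*, for the organizer that motor neurons release to place receptors, had 2.65, 2.82, 2.44 and 2.50 log2 CPM with atracurium, against 2.28, 2.43, 2.16 and 2.57 log2 CPM with water. The *madd-4* samples with atracurium were mostly the higher ones, but water replicate 4 lay among them, and the log2 difference of 0.24 (SE 0.14) had an adjusted p of 0.496 in limma-trend. For *molo-1*, an auxiliary protein of the channel, the log2 difference was −0.14 (SE 0.34), and it was 0.20 without atracurium replicate 4. The fitted value of *oig-4* was −0.01 without the same library.

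Among the endoplasmic reticulum proteins of the list, *nra-2* and *nra-4*, which influence the subunit composition of the receptor, were measured on 24506 to 37785 reads per group and differed by 0.04 (SE 0.06) and 0.05 (SE 0.06) on the log2 scale. The genes *crld-1*, for a protein needed in receptor assembly, and *rpy-1*, the relative of rapsyn, had −0.02 (SE 0.07) and −0.04 (SE 0.18), and both had 0.01 without atracurium replicate 2. The lowest value was that of *emc-6*, for a subunit of the membrane protein insertion complex. Its level was 5.13, 4.03, 5.24 and 5.14 log2 CPM in atracurium samples, against 5.21, 5.65, 5.28 and 5.38 log2 CPM in water samples. Atracurium replicate 2 was far below the rest, and the other atracurium samples were close to the lower water samples. The log2 difference of *emc-6* was −0.50 (SE 0.22), which did not pass the test (adjusted p = 0.419 by limma-trend, 0.0395 before adjustment). Without atracurium replicate 2 it was −0.21 with an adjusted p of 0.368. With the length trend removed it was −0.12. Of the 450 exonic bases of *emc-6*, 276 are shared on the same strand with *mrpl-1*, and by default HTSeq counts reads in shared exons for neither gene.

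The other acetylcholine receptor subunits of the neuromuscular junction gave 0 of 4 genes at either threshold in limma-trend, with a median log2 difference of −0.09. ACR-16, which forms the second muscle receptor, insensitive to levamisole, had 1.62, 1.26, 1.92 and 1.97 log2 CPM with atracurium, against 1.85, 1.90, 1.56 and 1.96 log2 CPM with water. The groups of *acr-16* overlapped fully, and its log2 difference was −0.12 (SE 0.19), and 0.02 without atracurium replicate 2. The motor neuron receptor shares *unc-38* and *unc-63* with the muscle channel and also holds ACR-2, ACR-3 and ACR-12. Their log2 differences were 0.21 (SE 0.32) for *acr-2*, −0.06 (SE 0.36) for *acr-3* and −0.44 (SE 0.27) for *acr-12*. That of *acr-2* was 0.06 without atracurium replicate 3 and 0.38 without atracurium replicate 2. That of *acr-3* was 0.02 without water replicate 2, and that of *acr-12* was −0.17 without atracurium replicate 2, where *acr-12* had 20 reads.

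Marker genes of the tissues were read beside these results. The 15 body wall muscle markers, from the tissue in which the channel works, had a median log2 difference of 0.06, close to the 0.08 of the 9 receptor genes. Of them 0 passed at an adjusted p below 0.05 in limma-trend. At an unadjusted p below 0.05 there were 5 higher and 1 lower of the 15, where 4.91% of all genes were higher and 6.63% lower. Among these *myo-3*, a body wall myosin heavy chain, had a log2 difference of 0.25 (SE 0.07, adjusted p = 0.261 by limma-trend). The 5 higher genes had 3424 to 25942 exonic bases, and the lower gene had 979. With the length trend removed the median was 0.01 for this list and 0.06 for the receptor genes. Summed, the body wall muscle markers stood at 5501 to 6346 CPM in atracurium samples and 5182 to 5797 CPM in water samples. The 13 neuronal markers had a median of 0.09, with 10 fitted values above 0 and 3 below. They summed to 303.3 to 352.4 CPM in atracurium samples and 323.3 to 354.2 CPM in water samples. This sum mostly follows *snb-1*, which had the most reads of the list and its lowest log2 difference (−0.11). Pharyngeal muscle markers had fitted values above 0 in all 7 genes, with a median of 0.39, and the myosin genes *myo-1* (0.49, adjusted p = 0.0129 by limma-trend) and *myo-2* (0.46, adjusted p = 0.0284) passed the test. That count of 2 was 0 without atracurium replicate 1 or any of water replicates 2, 3 and 4, and 1 without atracurium replicate 4 or water replicate 1. It was also 0 after the length trend was removed, with a replicate block and in a fit without limma's mean-variance trend. With sample weights or without atracurium replicate 2 the count was 3, and under the remaining alternatives, limma-voom among them, it stayed at 2. Over all 17 alternatives the log2 difference was 0.37 to 0.55 for *myo-1* and 0.34 to 0.52 for *myo-2*. The markers of intestine (median 0.15), hypodermis (−0.11), germ line and oocytes (0.12) and sperm (−0.40) had 0 genes at an adjusted p below 0.05. Of the 10 sperm markers listed, 9 were in the table, and 8 of these had fitted values below 0. At an unadjusted p below 0.05 limma-trend gave 2 of 7 intestine markers higher and 2 of 6 hypodermis markers lower. It gave 1 of 8 higher in germ line and oocytes, 3 of 9 lower in sperm and 0 of 13 in neurons. The shares of all genes at that threshold were 4.91% higher and 6.63% lower. In none of the lists was a gene at 0 reads in all samples of a group. The part of these tissues in the values of the receptor genes was not tested.

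**Figure D5:**
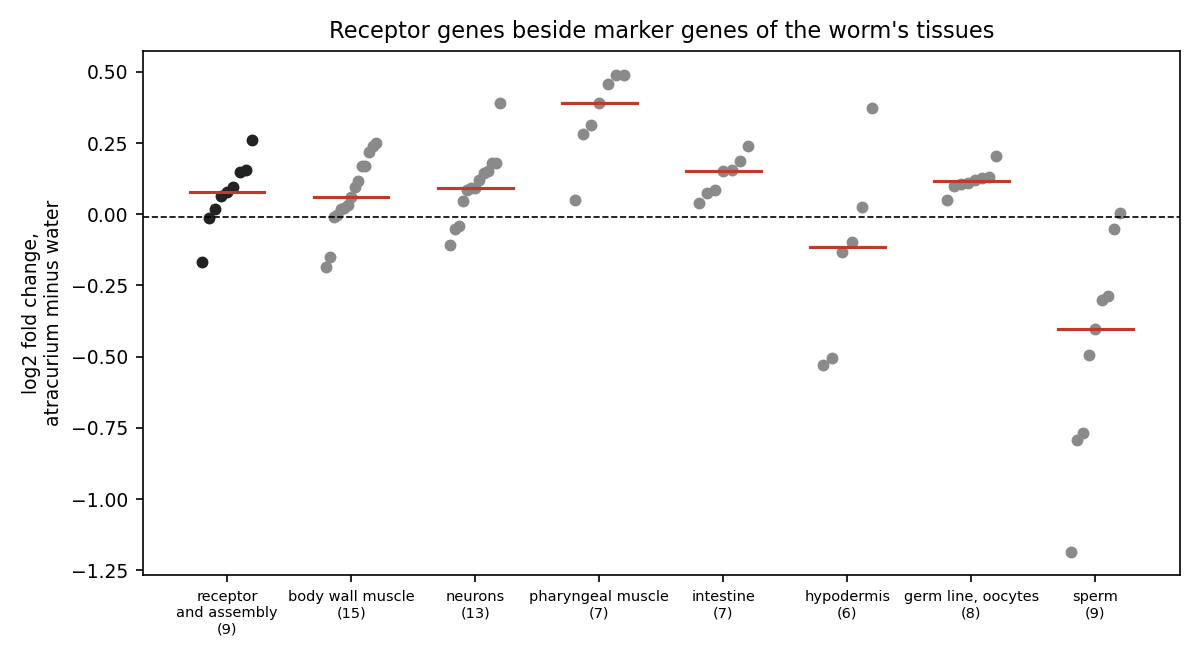
Log2 fold change of atracurium minus water (vertical axis) for each receptor and assembly gene (black) and each marker gene (grey), by tissue, with the list's median as a red line, the median of all genes dashed and the number of genes in brackets. The receptor genes, at a median of 0.08, lie between −0.17 and 0.26, as the body wall muscle markers do between −0.19 and 0.25, while the pharyngeal markers lie at a median of 0.39.

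Across the 8 samples the genes most like *unc-38* in their course, among 2887 genes of similar level, were *nhr-162*, *nhr-206* and *hsp-12.3*. The root mean square difference from *unc-38* in centred log2 CPM was 0.119, 0.128 and 0.132 for these 3 genes, where the median over the genes compared was 0.435 and the SD of *unc-38* itself was 0.297. No other gene of the receptor or of its assembly was among the 3. The likeness is a description over 8 samples of a gene with 42 to 111 reads in each. All 3 differences were below the SD that counting alone would give for *unc-38*, 0.19 in atracurium and 0.20 in water. As the 3 smallest of 2887, they cannot tell a shared course from counting error.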

How the data were processed

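RNA-seq of 4 atracurium and 4 water samples was used. Per the labels and the methods, the authors checked reads with FastQC, trimmed them with Trimmomatic 0.32, aligned them to WBcel235 (Ensembl release 91) with HISAT2 2.1.0, counted them by strand with HTSeq 0.11.0, dropped genes that did not exceed 2 counts in 3 or more samples, and deposited TMM-normalized log2 CPM made with edgeR 3.26.8 and limma 3.40.6. The prior count, 2 reads on average, pulls low values together and so understates large fold changes of low genes. Whole reads were recovered from the spacing of the values. The deposited values were fitted with limma 3.58.1 (R 4.3.3; trend, all 17521 genes, Benjamini-Hochberg), after the fit was tested on simulated data. Exonic lengths and coordinates came from Ensembl release 115 of WBcel235 (17493 genes matched). Of the value columns, 0 were left without a sample. Levels per kilobase used the CPM without the prior. The members and gene lists were chosen with earlier results of these data known. Named were all members, any gene of the 2 further lists, the markers, same-strand overlapping genes and the 3 genes most like *unc-38*. As alternatives, the fit was run without each sample, with a replicate block, with limma-voom on recovered reads, with sample weights, without the trend, and with robust moderation. It was also run on quantile-normalized values, on values shifted to a common median, after a length trend was removed (lowess span 0.3), and on genes that exceeded a log2 CPM of 0 in 4 or more samples. Intervals are 95%.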

Additional observations from a re-analysis of the deposited data

Results flagged for a closer look

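In 4 of 44 groups of 4 samples checked over the receptor, clustering, assembly and other neuromuscular receptor genes, 1 sample stood far from its group. Chance gives such a gap in about 1 of 20 groups, or about 2.2 here. Water replicate 4 held *lev-1* at 1.705 log2 CPM on 93 reads, where the other water samples lay at 2.179 to 2.261. The same library held *lev-8* at 0.212 log2 CPM on 32 reads, where the others lay at 0.719 to 0.797. Atracurium replicate 2 held *emc-6* at 4.031 log2 CPM on 549 reads, with the other atracurium samples at 5.131 to 5.235. It also held *acr-12* at −0.622 log2 CPM on 20 reads, with the others at 0.423 to 0.535.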

How the results depend on the processing

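The count of receptor, clustering and assembly genes at an adjusted p below 0.05 was 0 under all 17 alternatives, and the lowest adjusted p among their 153 values was 0.298 (*lev-10*, sample weights). The count at an unadjusted p below 0.05, 0 in the reported fit, was 1 (*lev-10*) with no trend, with a common median and with quantile normalization. Of the 153 values, 140 kept their direction and 13 did not, and 5 genes kept it throughout. For acr-8 the log2 difference was 0.0828 with sample weights, 0.0488 with a common median and 0.0823 with quantile normalization. For unc-29 it was −0.0279 with sample weights. Among the other genes rpy-1 had 0.0661 with sample weights, 0.0163 with limma-voom, 0.0271 with a common median and 0.0255 with quantile normalization. With a common median crld-1 had 0.0395 and acr-3 had 0.0025. With quantile normalization acr-3 had 0.102 and nra-2 had −0.0057. With the length trend removed lev-9 had −0.0114 and nra-4 −0.0414. Leaving out each sample in turn, the log2 difference ranged from −0.0349 to 0.248 for unc-38, from −0.0726 to 0.148 for unc-29, from −0.108 to 0.157 for acr-8, from −0.0474 to 0.0869 for unc-50, from −0.0088 to 0.577 for oig-4. It ranged from −0.369 to 0.205 for molo-1, from −0.077 to 0.0059 for crld-1, from −0.175 to 0.0874 for rpy-1, from −0.216 to 0.0205 for acr-16, from −0.19 to 0.019 for acr-3. Over the whole table, 31 genes passed in the reported fit, 16 with no trend, 139 with sample weights, and 17 to 78 when a sample was left out. Samples that share a replicate number did not deviate together (correlations of −0.01, −0.06, 0.01 and 0.04 over the 4 numbers, with 1 of the 4 atracurium samples most like its own number), so the numbers were not read as pairs. With a replicate block 20 genes passed, among them 0 of the 9 receptor genes and 0 of the 7 pharyngeal muscle markers, of which 2 passed in the reported fit. For the subunit genes, with as few as 32 reads in a sample, changes of a size inside the printed intervals stay below what these samples can resolve.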
